A study of Mus musculus with 6 samples.

Results

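The metallothionein genes *Mt1*, *Mt2* and *Mt3* were examined in retina from saline- and microbead-injected mice. They were taken by gene symbol from the deposited table of counts, with earlier results of these data known, and are 3 of the 31169 genes in that table. All 3 passed the filter on low counts and were among the 17707 genes tested. Metallothioneins are small proteins rich in cysteine that bind zinc and copper ions, buffer their concentration in the cell and react with oxidants. *Mt1* and *Mt2* are made in most tissues, in the retina mainly in glia, and their transcription is induced by zinc through the factor MTF1, and also by glucocorticoids and by cytokines acting through STAT3. *Mt3* is found mostly in the nervous system, is known as a growth inhibitory factor for neurons, and responds little to metals.

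The study asked how a rise in intraocular pressure alters the retina, using the microbead occlusion model, in which beads injected into the front of the eye obstruct the outflow of aqueous humor. C57BL/6 mice aged 1 month received an injection of saline or of microbeads 15 μm in diameter into the anterior chamber, and whole retina was collected after 4 weeks, at 2 months of age. Poly(A) RNA was sequenced, and the libraries used here are those of 3 saline-injected and 3 microbead-injected retina samples, numbered as replicates 1 to 3 of each group. Both eyes of a mouse were injected and the labels do not say whether the libraries of a group came from separate mice, so p-values measure the spread between these samples. The saline libraries held 36085737, 46481382 and 37546884 counts, and the microbead libraries held 19834366, 13574949 and 15647739 counts. In the sample descriptions the library names of the saline group follow one pattern and those of the microbead group another, while the sample titles run on across both groups. Whether the groups were prepared or sequenced apart is not given in the sources used here, and any such difference could not be told apart from the injection.

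The libraries were retina by their markers, with the rod transducin gene *Gnat1* at 13120 to 21400 CPM, counts per 1000000 after TMM scaling of library sizes. Saline libraries differed from one another in several marker lists before any comparison with microbead injection. Saline replicate 1 had the lowest summed level of the 10 retinal ganglion cell markers, 429 CPM against 1184 and 1526 CPM in saline replicates 2 and 3 and 1004 to 1368 CPM in the microbead libraries. It also had the highest summed level of the 11 microglia markers among all libraries, 267 CPM, where saline replicates 2 and 3 had 85.6 and 125 CPM. Saline replicate 3 held 394 CPM of 10 lens markers, while saline replicate 1 held 35.6 CPM and the remaining 4 libraries 2.37 to 3.37 CPM. Transcripts of the mitochondrial genome made up 3.19%, 3.30% and 3.57% of the counts of the saline libraries and 10.7%, 8.90% and 9.97% of those of the microbead libraries. Because of these differences, values of many genes are given below for each library, and some results also with a library left out.

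*Mt1* (ENSMUSG00000031765.8), the major zinc-inducible member, was measured at 110, 36.7 and 91.3 CPM in saline replicates 1, 2 and 3. In microbead replicates 1, 2 and 3 it was measured at 176.5, 115 and 129.5 CPM. Every microbead library was above every saline library, although the lowest microbead library and the highest saline library lay close together, and saline replicate 2 lay far below the others of its group. The means were 79.4 ± 38.1 CPM in saline retina and 140 ± 32.3 CPM in microbead retina (SD, n = 3 each). The log2 fold change of 0.82 (standard error 0.36, 95% confidence interval 0.03 to 1.62) did not pass the threshold of 0.05 in edgeR's quasi-likelihood test with Benjamini-Hochberg adjustment over all tested genes (unadjusted p = 0.0444, adjusted p = 0.148). Without a filter on low counts, the *Mt1* difference passed it (log2 fold change 0.77, edgeR adjusted p = 0.0187), whereas DESeq2 and limma-voom on the filtered genes gave adjusted p = 0.0645 and 0.122. The estimate rested most on saline replicate 2, without which it was 0.47, and was 1.13 without saline replicate 1. In whole retina, a change in the number of cells of a type and a change in RNA per cell cannot be told apart.

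*Mt2* (ENSMUSG00000031762.7), the other widely expressed, inducible member, was measured at 19.8, 3.34 and 10.5 CPM in saline replicates 1, 2 and 3. In the microbead libraries it was measured at 12.5, 9.30 and 8.96 CPM. The microbead libraries lay within the range of the saline libraries, which held both the highest and the lowest value of the 6. The means were 11.2 ± 8.25 CPM and 10.3 ± 1.98 CPM (SD, n = 3 each), and the log2 fold change was -0.12 (standard error 0.51, 95% confidence interval -1.27 to 1.02, edgeR adjusted p = 0.893). The sign of this estimate depended on saline replicate 1, without which it was 0.57, and on the tool, with 0.28 from limma-voom.

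*Mt3* (ENSMUSG00000031760.9), the neural member, was measured at 19.4, 16.7 and 23.4 CPM in saline replicates 1, 2 and 3. In the microbead libraries it was measured at 27.9, 20.1 and 25.6 CPM. The groups overlapped, with microbead replicate 2 below saline replicate 3, and no library stood far from the others. The means were 19.9 ± 3.39 CPM and 24.5 ± 4.02 CPM (SD, n = 3 each), and the log2 fold change was 0.30 (standard error 0.21, 95% confidence interval -0.17 to 0.78, edgeR adjusted p = 0.351). The direction of *Mt1* and *Mt3* was the same under each of the 4 other scalings of library size, and that of *Mt2* remained slightly negative under all 4.

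**Figure D1:**
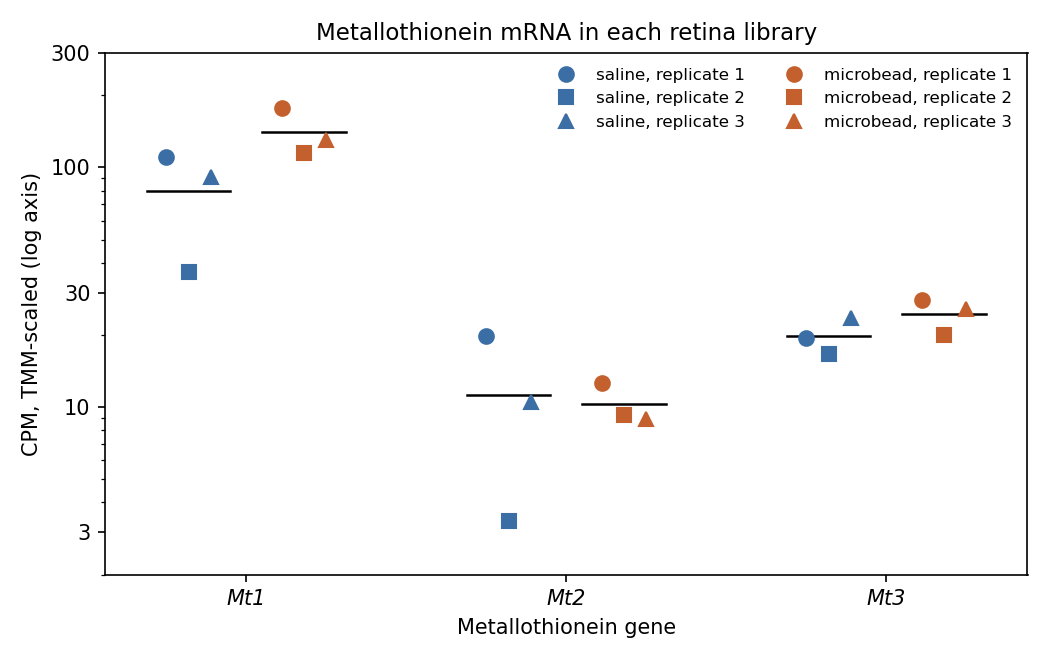
CPM of *Mt1*, *Mt2* and *Mt3* on a log axis in each of the 3 saline (blue) and 3 microbead (orange) libraries, with the symbol giving the replicate and black lines the group means. The *Mt1* values of 115 to 176.5 CPM in microbead libraries lie above those of 36.7 to 110 CPM in saline libraries, while the groups overlap for *Mt2* and *Mt3*, and saline replicate 2 is lowest for all 3 genes among the saline libraries.

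Of the 3 metallothionein genes, 0 had an adjusted p-value under 0.05 in edgeR's quasi-likelihood test, as against 12.8% of all 17707 tested genes, and 0 in DESeq2 or limma-voom. The unadjusted p-value was under 0.05 for 1 of them, *Mt1*, and for 5565 of the tested genes. Groups did not overlap for 1 of the 3, *Mt1*, with the microbead libraries higher, which was the case for 18.8% of tested genes. Counting error was smaller than the spread between libraries, at most 2.51% for *Mt1*, 8.80% for *Mt2* and 6.00% for *Mt3*. The last 2 were set by counts of 129 and 278 in microbead replicate 2.

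Within the saline group, the inducible members varied more than *Mt3* did. The highest saline value was 3 times the lowest for *Mt1*, 5.94 times for *Mt2* and 1.41 times for *Mt3*, and the corresponding ratios among microbead libraries were 1.54, 1.40 and 1.39. On the log2 scale, the saline SD was 0.85 for *Mt1* and 1.30 for *Mt2*, larger than that of 97.2% and 99.1% of the 10346 tested genes with a mean of at least 10 CPM. For *Mt3* it was 0.25, larger than that of 62.6% of these genes. In the microbead group, the SDs of 0.32, 0.27 and 0.25 for *Mt1*, *Mt2* and *Mt3* were larger than those of 70.7%, 57.9% and 52.2% of the same genes. *Mt1* and *Mt2* shared an order among the saline libraries, with replicate 1 highest and replicate 2 lowest, whereas *Mt3* was highest in replicate 3.

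Levels of different genes were compared per kb of transcript, using the principal transcripts of 549 bases for *Mt1*, 511 bases for *Mt2* and 536 bases for *Mt3*. *Mt1* was the highest of the 3 in every library, at 145 ± 69.5 CPM per kb in saline retina and 255 ± 58.8 CPM per kb in microbead retina (SD, n = 3 each). *Mt3* followed at 37.0 ± 6.33 and 45.7 ± 7.49 CPM per kb. *Mt2* was at 22.0 ± 16.1 and 20.1 ± 3.87 CPM per kb. In microbead retina, *Mt3* was above *Mt2* per kb in all 3 libraries. In saline replicate 1 *Mt2* was slightly above *Mt3* (38.7 against 36.3 CPM per kb), so that in saline retina the 2 did not differ beyond their spread. With all annotated exon bases counted as the length, the saline means of *Mt2* and *Mt3* were 19.1 and 18.6 CPM per kb, so their order depends on the transcripts that are present, while *Mt1* remained highest, at 63.7 CPM per kb.

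The sum of the 3 genes was 149, 56.7 and 125 CPM in the saline libraries and 217, 144 and 164 CPM in the microbead libraries. The groups overlapped narrowly, with saline replicate 1 above microbead replicate 2. *Mt1* made up 73.7%, 64.7% and 72.9% of the sum in the saline libraries and 81.4%, 79.6% and 79.0% in the microbead libraries. *Mt2* contributed 13.2%, 5.88% and 8.42% and then 5.78%, 6.46% and 5.46%.

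Ratios between members within a library do not depend on its scaling. There were 5.56, 11.01 and 8.66 counts of *Mt1* for each count of *Mt2* in the saline libraries and 14.1, 12.3 and 14.5 in the microbead libraries. All microbead libraries thus held more *Mt1* for each *Mt2* than any saline library. The log2 ratio of *Mt2* to *Mt1* was -3.02 ± 0.50 in saline retina and -3.76 ± 0.12 in microbead retina (SD, n = 3 each), a difference of -0.75 (two-sided exact permutation test, p = 0.1 and adjusted p = 0.3 over the 3 ratios). With 3 libraries against 3, this test cannot give a p under 0.1. Without saline replicate 1 this difference was -0.48. The log2 ratio of *Mt3* to *Mt1* differed by -0.64 (exact permutation test, p = 0.2, adjusted p = 0.3) and that of *Mt3* to *Mt2* by 0.11 (exact permutation test, p = 1, adjusted p = 1). The *Mt3* to *Mt1* difference was -0.27 without saline replicate 2, and the *Mt3* to *Mt2* difference changed sign to -0.48 without saline replicate 1 and to -0.02 without microbead replicate 3.

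The 3 genes lie in 1 cluster on the plus strand of mouse chromosome 8 (GRCm38, GENCODE vM21). *Mt3* spans 94152607 to 94154146, *Mt2* spans 94172664 to 94173568 and *Mt1* spans 94179082 to 94180327. *Mt4*, a member known from stratified epithelium, spans 94137197 to 94139031 in the same cluster, and its level was not analysed here. On the minus strand, the antisense gene *Gm45774* spans 94170748 to 94173412 and covers 432 of the 588 exon bases of *Mt2* (73.5%). Libraries were made with a kit that keeps the strand, but whether the counting used the strand is not given in the sources used here. Reads of *Gm45774* may therefore have been added to *Mt2*, or reads shared by both left uncounted, and the level of *Mt2* is uncertain. The authors aligned reads with the earlier release GENCODE vM12, whose exons, like the level of *Gm45774*, were not analysed here. Of the 31-base stretches of *Mt2* transcripts, 58.1% occur in transcripts of another gene, *Gm45774* on the opposite strand or *Pip5k1a*. Of its 100-base stretches, 22.4% do, in *Gm45774* alone. For *Mt1* and *Mt3* the share is 0% at either length.

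**Figure D2:**
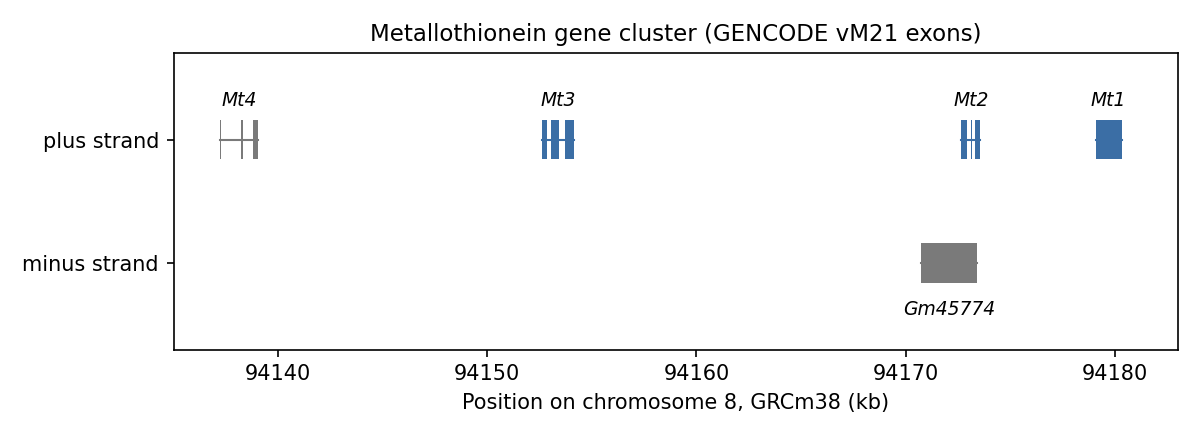
Exons (boxes) of the metallothionein genes on the plus strand and of the antisense gene *Gm45774* on the minus strand along chromosome 8 (GRCm38, position in kb). Genes with values here are blue and the others gray, and *Gm45774* lies across 432 of the 588 exon bases of *Mt2* but not across *Mt1* or *Mt3*.

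The 250 bases before the RefSeq start of each gene (GRCm38.p6, plus strand) are shown here. *Mt1* and *Mt2* shared an order among the saline libraries that *Mt3* did not have, although all 3 genes were lowest in saline replicate 2. Any link between that order and these sequences was not tested. Capitals mark the core of the metal response element, the element that MTF1 is known to bind, written as TGCACNC or TGCGCNC and searched on both strands. The windows are chr8:94178839-94179088 for *Mt1*, chr8:94172368-94172617 for *Mt2* and chr8:94152357-94152606 for *Mt3*.
Mt1: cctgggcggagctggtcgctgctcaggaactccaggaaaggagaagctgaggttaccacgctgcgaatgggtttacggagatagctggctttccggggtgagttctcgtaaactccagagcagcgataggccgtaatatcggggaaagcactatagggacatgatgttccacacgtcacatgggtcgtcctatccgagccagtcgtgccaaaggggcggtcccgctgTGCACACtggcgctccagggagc
Mt2: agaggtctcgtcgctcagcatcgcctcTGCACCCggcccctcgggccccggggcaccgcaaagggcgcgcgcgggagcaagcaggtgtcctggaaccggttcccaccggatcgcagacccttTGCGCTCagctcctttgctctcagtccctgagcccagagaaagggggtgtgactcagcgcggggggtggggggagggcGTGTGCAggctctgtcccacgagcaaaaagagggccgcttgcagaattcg
Mt3: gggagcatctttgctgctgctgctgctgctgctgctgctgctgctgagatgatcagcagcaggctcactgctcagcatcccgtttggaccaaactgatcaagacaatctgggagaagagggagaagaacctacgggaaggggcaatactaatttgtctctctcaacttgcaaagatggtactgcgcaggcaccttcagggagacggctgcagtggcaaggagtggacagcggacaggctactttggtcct
The core occurred at 1 place before the start of *Mt1*, at 3 places before that of *Mt2* and at 0 places before that of *Mt3*. In windows that also include the 50 bases after the start, it occurred at 3 places for *Mt1*, 4 for *Mt2*, 1 for *Mt3* and 1 for *Mt4*. Among 32851 such windows of 300 bases, 25.7% held at least 1 place, 1.31% at least 3 and 0.295% at least 4. The core of the antioxidant response element, written as TGACNNNGC and searched on both strands, occurred once, in the *Mt2* window, and in 12.4% of all windows. The letters TATAAA were found in the window of *Mt4* and not in those of *Mt1*, *Mt2* and *Mt3*, and in 13.6% of all windows. These matches describe letters in the sequence and were not tested for binding. A single RefSeq start was used for each gene, although GENCODE vM21 has 3 transcripts for *Mt1*, 2 for *Mt2* and 3 for *Mt3*. Bases beyond these windows were not searched, so cores or TATAAA letters near another start would be missed. The counts therefore do not cover the whole promoter of a gene. The RefSeq start of *Mt2* lies upstream of the start in GENCODE vM21, that of *Mt1* shortly downstream of it, and that of *Mt3* at the same base.

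Of the genes that move zinc, most ZnT exporters carry it out of the cytosol and most ZIP importers carry it in, but this need not hold for each member. In edgeR's quasi-likelihood test, 0 of 7 tested ZnT genes were higher after microbead injection, against 6.46% of all tested genes, and 1 was lower, against 6.31%. The ZnT median log2 fold change was 0.09, against -0.03 over all tested genes. *Slc30a9*, a transporter of the mitochondrion, was measured at 192, 196 and 230 CPM in saline and 132, 128 and 111 CPM in microbead retina (log2 fold change -0.74, standard error 0.17, edgeR adjusted p = 0.0252). *Slc30a1*, which encodes the exporter of the cell membrane and is a textbook target of MTF1, had 2 counts in saline replicate 1 and 0 in the other 5 libraries and was not tested. The gene is known to be widely expressed, so these counts may not reflect its level, and the reason could not be settled from the table.

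Of 13 tested ZIP genes, 1 was higher and 3 were lower, with a median of -0.38. *Slc39a13*, an importer of the secretory pathway, was measured at 37.0, 31.4 and 31.6 CPM in saline and 59.1, 48.6 and 61.6 CPM in microbead retina (log2 fold change 0.76, standard error 0.17, edgeR adjusted p = 0.0260). *Slc39a3* was lower, at 116, 124 and 136 CPM against 55.4, 60.9 and 86.6 CPM (-0.89, standard error 0.20, edgeR adjusted p = 0.0257). *Slc39a14*, which also carries iron and manganese, was lower at 38.4, 35.6 and 39.6 CPM against 13.6, 24.2 and 23.9 CPM (-0.88, edgeR adjusted p = 0.0402). For these genes each microbead library lay outside the saline range, a pattern that 18.9% of all tested genes showed in the lower direction. *Slc39a11* was lower at 8.46, 9.30 and 13.1 CPM against 4.78, 5.77 and 5.64 CPM (-0.93, edgeR adjusted p = 0.0491), a call that was lost in 5 of 10 other fits of the 6 libraries.

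Copper genes, among them the importer *Slc31a1* and the copper-zinc superoxide dismutase *Sod1*, gave 0 calls in either direction among 12 tested (median 0.01), while DESeq2 gave 1 higher and edgeR without a filter gave 1 higher and 1 lower. There was also 1 higher without saline replicate 1 and 1 lower without microbead replicate 2. At an unadjusted p under 0.05 there were 2, the copper pump *Atp7a* (log2 fold change -0.92) and the importer *Slc31a2* (0.78), named after their values were seen. Of 19 tested iron genes, 0 were higher and 4 were lower, with a median of -0.49. Among the called genes, the largest falls were those of the transferrin receptor gene *Tfrc* (-0.98), the metalloreductase gene *Steap2* (-0.85) and the iron chaperone gene *Pcbp1* (-0.81), with adjusted p = 0.0229 to 0.0280 from edgeR. *Tfrc* was at 81.4, 81.1 and 81.2 CPM in the microbead libraries and at 121, 144 and 216 CPM in the saline libraries.

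**Figure D3:**
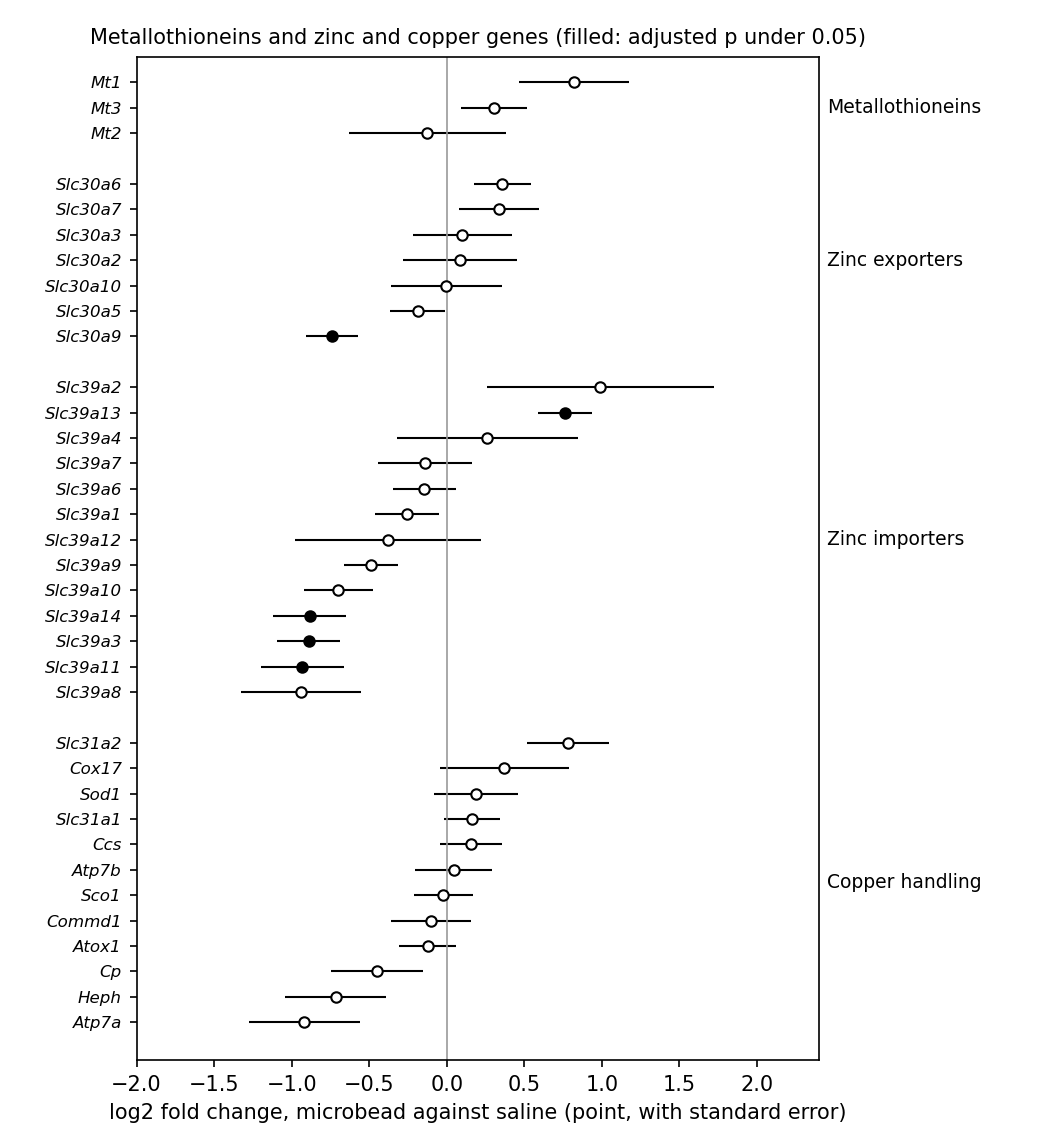
Log2 fold change, microbead against saline, of the metallothioneins and of the tested zinc exporter, zinc importer and copper genes, with bars for the standard error of edgeR's fit over 3 against 3 libraries and filled points for an adjusted p-value under 0.05. Filled points are *Slc30a9*, *Slc39a13*, *Slc39a14*, *Slc39a3* and *Slc39a11*, and those of the 3 metallothioneins are open.

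The inputs known to drive metallothionein transcription were described next. *Mtf1*, the metal-sensing factor itself, was at 60.5, 59.5 and 55.3 CPM in saline and 27.4, 47.8 and 36.9 CPM in microbead retina (log2 fold change -0.65, edgeR adjusted p = 0.0736). The groups did not overlap, but the difference did not pass the threshold. Of the 11 tested genes of metal-responsive regulation, 2 were higher and 0 lower, with a median of -0.20. *Gclc*, which encodes the catalytic subunit of the first enzyme of glutathione synthesis, was at 40.4, 46.2 and 51.6 CPM in saline and 70.7, 67.8 and 69.9 CPM in microbead retina (0.59, standard error 0.16, edgeR adjusted p = 0.0452). *Selenow*, which encodes a small selenoprotein, was at 225, 196 and 254 CPM in saline and 411, 322 and 405 CPM in microbead retina (0.75, standard error 0.18, edgeR adjusted p = 0.0307). These calls depended on the fit. With the offset for gene length and GC content 0 genes of the list were higher and 2 lower, and *Selenow* was at 0.39 (edgeR adjusted p = 0.133). Without a filter 1 was higher and 3 lower, with DESeq2 2 and 2, and with a term for replicate number 0 and 0.

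Of 16 tested glucocorticoid-induced genes, 0 were higher and 1 was lower, with a median of -0.47. The 1 was *Ddit4*, an inhibitor of mTORC1 signaling, at 126, 107 and 98.6 CPM in saline and 53.9, 53.5 and 69.2 CPM in microbead retina (log2 fold change -0.91, edgeR adjusted p = 0.0186). The count for the list was 0 higher and 4 lower without a filter, 1 and 3 with DESeq2, 1 and 2 with the length and GC offset, and 0 and 0 with a term for replicate number. Of 19 tested NRF2 antioxidant genes, 1 was higher, *Gclc*, and 2 were lower, the thioredoxin gene *Txn1* (-0.88) and the mitochondrial superoxide dismutase gene *Sod2* (-0.80), with a median of -0.24. The NRF2 count was 0 higher and 2 lower without a filter and 0 and 3 with the length and GC offset. It was 0 and 0 with a term for replicate number. Of 14 genes that supply cysteine and glutathione, 1 was higher and 1 lower, again *Gclc* and *Txn1*, with a median of -0.05. Here the count was 0 and 1 without a filter or with that offset, and 0 and 0 with the replicate term.

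Of 18 tested cytokine, STAT3 and gliosis genes, 0 were higher and 6 were lower, with a median of -0.71. With limma-voom 0 were higher and 2 lower, with *Cebpb*, *Cebpd*, *Socs3* and *Junb* no longer called, and without saline replicate 1 edgeR gave 2 higher and 4 lower. Among the genes called in the main fit, the largest falls were those of *Cebpb* (log2 fold change -4.46, edgeR adjusted p = 0.0174), *Socs3* (-3.69, adjusted p = 0.0464) and *Junb* (-3.51, adjusted p = 0.0498). *Cebpb* was at 7.22, 3.38 and 29.2 CPM in saline and at 0.463, 0.216 and 1.10 CPM in microbead retina, there from 9, 3 and 17 counts, and its estimate was -3.14 without saline replicate 3. *Socs3*, the feedback inhibitor of STAT3 signaling, was at 28.2, 6.69 and 228 CPM in saline and 6.68, 8.15 and 5.52 CPM in microbead retina, so that its groups overlapped and saline replicate 3 held most of the signal. *Junb* likewise reached 401 CPM in saline replicate 3 and was far lower in saline replicates 1 and 2 (35.6 and 16.8 CPM), against 9.66 to 17.5 CPM in microbead retina. Without saline replicate 3 the estimates were -1.36 for *Socs3* and -0.99 for *Junb*. The *Junb* call was lost in 6 of 10 other fits of the 6 libraries.

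The order of the saline libraries in this list was set beside that of the inducible metallothioneins. Of its 18 genes with a mean of at least 1 CPM, 10 had saline replicate 1 highest, 3 next and 2 lowest, the order of *Mt1* and *Mt2*, as did 12.5% of the 15087 tested genes at that level. So did 7 of 16 glucocorticoid-induced genes and 0 of 11 genes of metal-responsive regulation. The order was also that of 0 of 7 ZnT, 3 of 12 ZIP, 1 of 12 copper and 4 of 19 iron genes. Of the NRF2 genes 3 of 19 had it, and of those supplying cysteine and glutathione 1 of 14. The acute-phase genes *Serpina3n* and *Lcn2*, named after their values were seen, were at 240 and 62.9 CPM in saline replicate 1, at 8.47 and 3.48 CPM in replicate 2 and at 10.4 and 6.78 CPM in replicate 3 of that group. *Stat3* was at 198, 80.5 and 71.9 CPM in saline replicates 1, 2 and 3. All 11 microglia markers had the order of *Mt1* and *Mt2* among saline libraries. Of the markers with a mean of at least 1 CPM, it was that of 3 of 12 for Müller glia and 2 of 4 for astrocytes. It was also that of 2 of 10 rod and 1 of 8 endothelial markers. No cone, ganglion cell, bipolar, amacrine, horizontal cell, pigment epithelium, lens or blood marker at that level had it. No test was made of these orders, and the part of these lists in the metallothionein values was not tested.

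Of the 131 different genes tested in these lists and among the neighbors of *Mt1*, 23 were called, 4 higher and 19 lower, beside 6.46% higher and 6.31% lower of all tested genes. Leaving out saline replicate 1, 2 or 3 left 20, 5 and 9 of them past the threshold. Leaving out microbead replicate 1, 2 or 3 left 3, 4 and 0. All 23 had the same direction in each of these 6 fits, but *Slc30a9*, *Slc39a11*, *Slc39a14*, *Pcbp1*, *Gclc*, *Sod2*, *Nudt21* and *Bbs2* were each called in only 1. Among the cytokine, STAT3 and gliosis genes, *Il6st* was also called in only 1 of these fits and *Vim* in 0. Of the 7 called genes of the zinc and metal-responsive lists, 6, 0 and 3 were still called when saline replicate 1, 2 or 3 was left out, and 0, 1 and 0 when microbead replicate 1, 2 or 3 was.

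Markers of glia, the cells in which *Mt1* and *Mt2* are mostly found in the retina, were summed. The summed level of 12 Müller glia markers was 6572, 6555 and 9920 CPM in saline and 6008, 6115 and 5007 CPM in microbead retina, lower in all microbead libraries. This sum does not describe each marker, since only 4 of the 12 were lower without overlap of the groups. Their most abundant gene was the glutamine synthetase gene *Glul*, at 2001, 3063 and 4734 CPM in saline and 2799, 2702 and 2393 CPM in microbead retina. Its groups overlapped (edgeR adjusted p = 0.491). None of the markers was at or under 3 counts in all libraries. Of the 12, 0 were higher and 4 lower, beside 6.46% higher and 6.31% lower of all tested genes. The sum of 6 astrocyte markers was 356, 308 and 296 CPM in saline and 168, 248.6 and 197 CPM in microbead retina, with 0 higher and 2 lower. Most of this sum was *Igf1r*, at 262, 254 and 221 CPM in saline and 101, 169 and 128 CPM in microbead retina. The median log2 fold change of the 6 astrocyte markers was 0.35, so that the lower sum does not describe the list as a whole. *Gfap*, the intermediate filament gene of astrocytes and reactive Müller glia, was at 49.8, 27.5 and 37.8 CPM in saline and 42.8, 55.5 and 44.5 CPM in microbead retina (log2 fold change 0.31, edgeR adjusted p = 0.393). The part of glial content in the values of *Mt1*, *Mt2* and *Mt3* was not tested.

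Among markers of the other cells, 1 of 10 rod markers was lower and 1 of 8 cone markers higher, beside 6.31% lower and 6.46% higher of all tested genes. None of 10 ganglion cell, 8 bipolar and 8 amacrine markers was called in edgeR's test, and 1 of 4 horizontal cell markers was lower. Of 11 microglia markers 1 was lower, of 8 endothelial markers 3 were lower, of 4 tested lens markers 1 was lower, and of 11 pigment epithelium and 5 blood markers 0 were called. With library sizes taken without the mitochondrial genome, whose share was higher in all microbead libraries, the log2 fold changes were 0.84 for *Mt1*, -0.10 for *Mt2* and 0.33 for *Mt3*, close to the values above.

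Genes around the cluster were measured in both directions. Of the 14 other protein-coding genes within 500 kb of *Mt1*, 13 were tested, 1 was higher and 2 were lower, with a median of -0.20. *Bbs2*, a ciliary gene from 94067954 to 94098928, was higher at 160, 123 and 127 CPM in microbead against 99.3, 84.4 and 78.4 CPM in saline retina (log2 fold change 0.64, edgeR adjusted p = 0.0467). *Nudt21*, an mRNA 3′ processing factor, was lower at 44.8, 47.2 and 35.5 CPM against 66.7, 71.0 and 73.7 CPM (-0.73, edgeR adjusted p = 0.0288). *Nup93*, the nearest downstream coding gene, had a log2 fold change of -0.01 (edgeR adjusted p = 0.980).

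Genes with the pattern most like each member were sought by Pearson correlation of log2 CPM over the 6 libraries, among tested genes with a mean of at least 10 CPM. For *Mt1* these included *Thap3*, *Tk2*, *Gstm1* and *Etnppl* (r = 0.951 to 0.982). *Gstm1*, a glutathione S-transferase gene, was at 27.9, 14.1 and 26.5 CPM in saline and 34.0, 26.4 and 33.7 CPM in microbead retina, so that it shared with *Mt1* the low value in saline replicate 2. For *Mt2* they were *Bag3*, *Pdlim3*, *Ifi27*, *Ube2l6* and *Tmem176b* (r = 0.911 to 0.976), of which the interferon-induced *Ifi27* was at 21.4, 6.19 and 11.5 CPM in saline and 11.6, 8.37 and 10.2 CPM in microbead retina. For *Mt3* they included *Tmem218*, *Rpl29*, *Bad* and *Rnd2* (r = 0.976 to 0.988). The 3 lists had no gene in common, and 25 genes for *Mt1*, 6 for *Mt2* and 117 for *Mt3* had r over 0.9.

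With the group means taken out, so that variation within groups alone counted, the likest genes for *Mt1* were *Cplx4*, *Htra1*, *Nfkbia*, *Cspg5* and *Tsc22d4* (r = 0.984 to 0.997). For *Mt2* they were *Cnp*, *Trf*, *Tsc22d4*, *Bag3* and *Cspg5* (r = 0.977 to 0.997), with *Cspg5* and *Tsc22d4* on both lists. *Trf*, the transferrin gene, was at 26.7, 4.95 and 12.9 CPM in saline and 8.64, 6.28 and 6.29 CPM in microbead retina, with the same order as *Mt2* among the saline libraries. For *Mt3* they were *Tmem9*, *Tmem218*, *Rpap2*, *Itpa* and *B4gat1* (r = 0.995 to 0.998), none of which was on the lists of *Mt1* and *Mt2*. These values describe 6 libraries, in which so few points give high correlations readily, and the saline libraries, with the widest spread, weigh most for *Mt1* and *Mt2*.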

How the data were processed

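Whole-retina poly(A) RNA was measured in 3 saline- and 3 microbead-injected samples, grouped by the labels. The authors aligned reads with STAR 2.5.3a to GRCm38.p5, counted them per gene with featureCounts 1.15.2 and deposited raw counts, per the labels and the study's methods. Their DESeq2 comparison in the same table (a mean, log2 and linear fold changes, p-values, adjusted p-values and calls) was not used. After filterByExpr (minimum count 10, total 15) and TMM scaling, groups were compared by edgeR 4.0.16 (R 4.3.3), two-sided quasi-likelihood test, Benjamini-Hochberg adjustment, threshold 0.05. Steps were tested on simulated data. In units of CPM (counts per 1000000, scaled sizes) 3 counts are 0.0622 to 0.216 CPM, which covers counting error only. Ratios were compared by exact permutation. Annotation was GENCODE vM21, and the start regions of *Mt1*, *Mt2*, *Mt3* and *Mt4*, all matched by symbol, came from RefSeq. The members and gene lists were chosen with earlier results of these data known. Named were the members, the called genes of the zinc and metal-responsive lists, the 3 called genes with the largest change in each other list, and the 5 genes likest each member by each measure. Some of these genes are not reported here. Other genes named were chosen after their values were seen. Alternatives comprised scaling by RLE or by upper quartile, leaving the 100 most abundant genes or the mitochondrial genome out of library sizes, omitting the filter or requiring 10 counts in every library, testing with DESeq2 1.42.0 or limma-voom 3.58.1, adding a replicate block, adding an offset for gene length and GC content, a threshold of 0.01, and omission of each library in turn.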

Additional observations from a re-analysis of the deposited data

How the results depend on the processing

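With 3 libraries a group, the SD between samples of each metallothionein was larger than that expected from counting error. On the log2 scale the latter was 0.04 for *Mt1*, 0.13 for *Mt2* and 0.09 for *Mt3*. *Mt2* counts may have gained or lost reads to an antisense gene. Over 10 other fits of the 6 libraries the log2 fold change was 0.57 to 0.94 for *Mt1*, -0.48 to 0.28 for *Mt2* and 0.25 to 0.35 for *Mt3*. *Mt1* passed the threshold without a filter (0.77, edgeR adjusted p = 0.0187, against 0.0645 to 0.239 in the others), and *Mt2* changed sign with limma-voom (0.28) and the replicate block (0.16). The cause was not tested. Leaving out 1 library gave 0.47 to 1.13 for *Mt1*, -0.56 to 0.57 for *Mt2* and 0.19 to 0.45 for *Mt3*, none past the threshold in edgeR. The log2 ratios then differed by -0.97 to -0.48 (*Mt2* to *Mt1*), -0.96 to -0.27 (*Mt3* to *Mt1*) and -0.48 to 0.69 (*Mt3* to *Mt2*, negative without saline replicate 1, at -0.48, and without microbead replicate 3, at -0.02). The summed level differed by 64.5 CPM, and by 37.6 to 86.4 CPM under its alternatives. Of 17707 genes, 2261 were called. The number was 3720 without a filter, 3582 with DESeq2, 905 with the replicate block and 87 at an adjusted p-value under 0.01, and 46 (without microbead replicate 3) to 2621 (without saline replicate 1) with 1 library left out. Of the calls, 50.6% were higher, and 40.6% without a filter. The 23 called list genes became 6 with the replicate block, and 0 to 30 list genes were called with 1 library left out. The deviations of same-numbered libraries correlated at -0.01, 0.27 and -0.04 across genes. The value of 0.27, for replicate 2, was the highest of all pairs, but not every library correlated best with its own number. Deviations add up to 0 within each group of 3 libraries, so these values cannot decide whether replicate numbers pair the samples.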
